A study of Mus musculus with 24 samples.

Results

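The Cadm and contactin cell adhesion molecules described here were the products of 9 genes, Cadm1, Cadm2, Cadm3, Cadm4, Cntn1, Cntn2, Cntn4, Cntn6 and Cntnap1, a set of neural adhesion genes linked to autism. The genes were chosen by name, through the symbol that the array's annotation gives each feature, and not by any measured value. At the gene level, 8 of the 23332 transcript clusters (all probes of a transcript summarised into 1 value) carried 1 of these symbols, and no cluster of Cadm2 alone was found. At the exon level, 194 of the 229581 probe sets (a few probes to 1 stretch of a transcript) did, between 9 for Cadm4 and 36 for Cntn2. Total RNA of mouse tissue was hybridised to 12 Affymetrix exon arrays, in 4 groups of 3: cerebellum of Usp15-deficient mice, cerebellum of wild-type mice, skeletal muscle of Usp15-deficient mice and skeletal muscle of wild-type mice. All mice were untreated C57BL/6 animals of 1 month of age. USP15 is a deubiquitinating enzyme, and the arrays were made to ask how its loss changes transcripts and their splicing. The sources used here do not say which part of Usp15 was deleted, nor whether each group's 3 samples were 3 different animals, and p-values cover only the spread among these samples.

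Cadm proteins, also called SynCAMs or nectin-like molecules, are immunoglobulin-domain proteins that span the membrane and bind each other across cell contacts, both at synapses and between axons and glia. Contactins are immunoglobulin and fibronectin-domain proteins held on the cell surface by a lipid anchor, so they act with partners that cross the membrane. The best known of these is Cntnap1, or Caspr, which together with Cntn1 forms the axonal side of the paranodal junction that flanks each node of Ranvier.

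Values are the deposited log2 signals, so a difference of 1 is a doubling. Signals of different genes were not compared, since each probe set binds with its own strength. As a mark of background, the 95th percentile of the group mean over 719 olfactory receptor clusters was used, genes that neither tissue should express. It stood at 5.77 in Usp15-deficient cerebellum, 5.79 in wild-type cerebellum, 4.98 in Usp15-deficient muscle and 5.05 in wild-type muscle, and over 2153 olfactory receptor probe sets at 6.13, 6.14, 5.52 and 5.48 in the same order of groups. The median gene-level signal of an array was 6.09 to 6.17 for cerebellum and 5.41 to 5.51 for muscle. The tissue labels matched their markers: all 7 granule neuron genes and all 4 measured Purkinje cell genes were higher in cerebellum, and all 7 measured fast fibre genes were lower there. Usp15 itself was lower on every Usp15-deficient array, at 7.08 ± 0.10 in Usp15-deficient cerebellum against 7.60 ± 0.08 in wild-type cerebellum, and at 6.80 ± 0.07 in Usp15-deficient muscle against 8.67 ± 0.25 in wild-type muscle (SD, n = 3). Neither difference passed the adjustment over all clusters (limma adjusted p = 0.996 in cerebellum and 0.273 in muscle). The wild-type muscle arrays differed among themselves in slow fibre genes, whose median over 4 genes was 8.97, 9.02 and 9.16 on the Usp15-deficient muscle arrays, against 5.34, 5.35 and 9.47 on wild-type muscle arrays 1, 2 and 3.

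All 8 clusters were higher in cerebellum than in muscle, in Usp15-deficient and in wild-type mice alike. The difference was smallest for Cadm1 and Cadm4, which kept a clear signal in muscle. For the contactins, below background in muscle, it is known only as a lower bound. Such a bound follows the cerebellar signal of the gene, so the bounds were not ranked between genes. In limma fits across all clusters, 8 of 8 passed an adjusted p of 0.05 as higher in Usp15-deficient cerebellum, beside 57% of all clusters, and 8 of 8 did in wild-type cerebellum, beside 54.6% of all clusters. Being higher in cerebellum was thus common on these arrays, where the median of all clusters differed by 0.62 in either genotype. The median over the 8 clusters was 4.24 in Usp15-deficient and 4.22 in wild-type mice, or 3.21 in Usp15-deficient and 3.26 in wild-type mice with the clusters below background in muscle set to their bounds. When the 12 arrays were brought to 1 distribution by quantile normalization, the median of all clusters moved by -0.64 in Usp15-deficient and -0.63 in wild-type mice. The share of called clusters that were higher in cerebellum then fell to 47.4%, against 81.5% as deposited, in Usp15-deficient mice and to 46.7%, against 80.7% as deposited, in wild-type mice. All 8 clusters stayed called as higher under that scaling. In bulk tissue, fewer cells of a type and less RNA per cell cannot be told apart.

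Cadm1, the founding member of its family and known in epithelia as well as in neurons, had 8.02, 8.24 and 8.13 in Usp15-deficient cerebellum and 6.18, 6.25 and 6.27 in Usp15-deficient muscle. In wild-type mice it had 7.67, 8.10 and 8.22 in cerebellum and 6.08, 6.08 and 6.08 in muscle. No cerebellar array overlapped a muscle array, and all 6 muscle arrays lay above the background mark. The difference was 1.90 ± 0.10 (SE) in Usp15-deficient mice, a 3.72-fold higher level, and 1.92 ± 0.16 in wild-type mice, 3.78-fold (limma adjusted p = 2.18e-05 and 0.000124). After quantile normalization it was 1.52 in Usp15-deficient and 1.57 in wild-type mice.

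Cadm3 and Cadm4 are known as a pair across the axon and glia contact in peripheral nerve, with Cadm3 on the axon and Cadm4 on the Schwann cell. Cadm3 had 10.66, 10.36 and 10.42 in Usp15-deficient cerebellum and 6.44, 7.52 and 7.15 in Usp15-deficient muscle, against 10.60, 10.24 and 10.37 in wild-type cerebellum and 6.59, 6.70 and 6.92 in wild-type muscle. Its tissue difference was 3.44 ± 0.28 in Usp15-deficient and 3.67 ± 0.15 in wild-type mice (limma adjusted p = 0.00011 and 4.41e-06). Cadm4 had 7.66, 7.85 and 7.73 in Usp15-deficient cerebellum and 5.73, 6.16 and 5.83 in Usp15-deficient muscle, against 7.63, 7.92 and 7.75 in wild-type cerebellum and 5.87, 5.45 and 5.20 in wild-type muscle. The tissues did not overlap for either gene, and both lay above the background mark on all 6 muscle arrays. The Cadm4 difference was 1.84 ± 0.14 in Usp15-deficient and 2.26 ± 0.19 in wild-type mice (limma adjusted p = 9.42e-05 and 0.000126).

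Among the contactins, muscle gave only a bound, because Cntn1, Cntn2, Cntn4 and Cntn6 were below the background mark on each of the 6 muscle arrays. Cntn1 had 9.37, 9.61 and 9.66 in Usp15-deficient cerebellum and 3.54, 3.46 and 3.27 in Usp15-deficient muscle, against 9.40, 9.47 and 9.37 in wild-type cerebellum and 3.43, 3.53 and 3.38 in wild-type muscle. Measured against the muscle mark, it was at least 23.7-fold higher in Usp15-deficient cerebellum and at least 20.6-fold higher in wild-type cerebellum. Its fitted differences were 6.12 in Usp15-deficient and 5.96 in wild-type mice (limma adjusted p = 7.14e-07 and 4.17e-07). Cntn2, known as TAG-1 on axons and at the juxtaparanode, had 9.19, 8.88 and 8.89 in Usp15-deficient cerebellum and 4.84, 4.63 and 4.41 in Usp15-deficient muscle, against 9.10, 8.81 and 9.05 in wild-type cerebellum and 4.87, 4.63 and 4.56 in wild-type muscle. It was at least 16.0-fold higher in Usp15-deficient cerebellum and at least 15.3-fold higher in wild-type cerebellum.

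Cntn4 and Cntn6 are known from axon guidance and synapse formation, and Cntn6, or NB-3, from the cerebellar granule cell. Cntn4 had 7.31, 7.59 and 7.62 in Usp15-deficient cerebellum and 3.15, 3.09 and 3.14 in Usp15-deficient muscle, against 7.16, 7.41 and 7.59 in wild-type cerebellum and 3.05, 3.08 and 3.13 in wild-type muscle. Cntn6 had 7.95, 7.82 and 8.08 in Usp15-deficient cerebellum and 2.27, 2.20 and 2.08 in Usp15-deficient muscle, against 8.0, 7.74 and 7.98 in wild-type cerebellum and 2.26, 2.13 and 1.99 in wild-type muscle. The tissues stood well apart for both genes. Cntn4 was at least 5.75-fold higher in Usp15-deficient cerebellum and at least 5.06-fold higher in wild-type cerebellum, and Cntn6 was at least 7.83-fold higher in Usp15-deficient cerebellum and at least 7.26-fold higher in wild-type cerebellum. Cntnap1 had 9.34, 9.17 and 9.19 in Usp15-deficient cerebellum and 4.99, 5.22 and 5.11 in Usp15-deficient muscle, against 9.24, 9.11 and 9.19 in wild-type cerebellum and 4.94, 4.99 and 5.17 in wild-type muscle. Its muscle signal lay at the background mark, just above it on the 3 Usp15-deficient arrays and on 1 of the 3 wild-type arrays. For each of the 8 genes the order of the groups was therefore both cerebellar groups above both muscle groups, while the genotypes of a tissue were neighbours that no test separated.

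**Figure D1:**
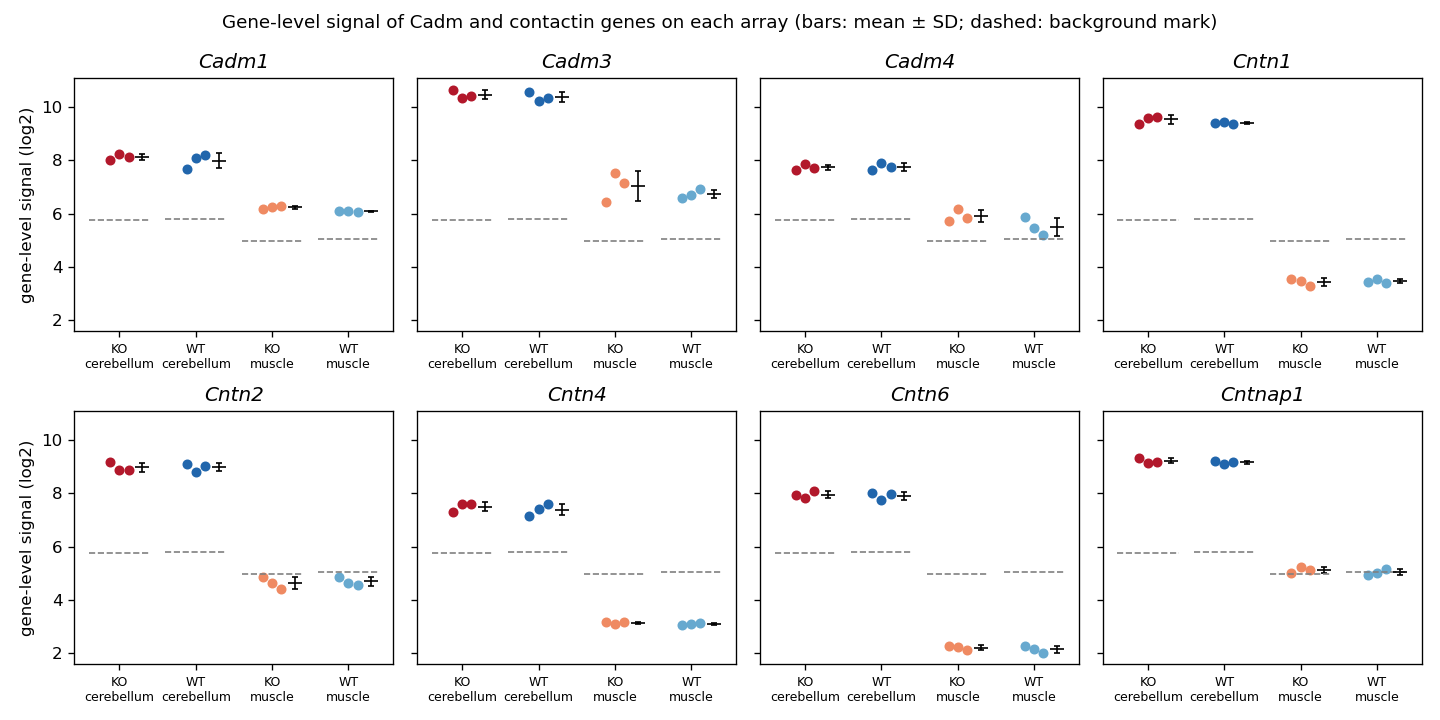
Gene-level signal (log2, vertical axis) of the 8 clusters on each of the 12 arrays, with Usp15-deficient (KO) left of wild-type (WT) in cerebellum and in muscle. Points are arrays, black bars give the mean ± SD of 3 arrays, and dashed lines the background mark of the group. Cntn1, Cntn2, Cntn4 and Cntn6 lie below the dashed line in muscle, and Cadm1, Cadm3 and Cadm4 above it.

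Promoter windows of 300 bases, 250 before to 50 after the start of transcription, were taken from RefSeq (GRCm38.p6) and held 7 of the 9 genes, all but Cadm1 and Cntnap1. A pair is shown because Cadm4 lay above the background mark on all 6 muscle arrays and Cntn6 below it on all 6. Capitals mark each match to the GC box GGGCGG, a binding motif of Sp-family factors, searched on both strands. The Cadm4 window is chr7:24481773-24482072 on the plus strand, and the Cntn6 window is chr6:104492794-104493093 on the plus strand.
Cadm4: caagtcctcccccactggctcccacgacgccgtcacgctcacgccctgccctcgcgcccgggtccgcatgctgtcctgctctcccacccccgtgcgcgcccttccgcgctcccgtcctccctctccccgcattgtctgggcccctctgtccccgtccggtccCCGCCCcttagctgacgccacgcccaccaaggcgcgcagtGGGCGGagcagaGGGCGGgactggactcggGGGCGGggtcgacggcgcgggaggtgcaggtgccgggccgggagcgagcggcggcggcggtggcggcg
Cntn6: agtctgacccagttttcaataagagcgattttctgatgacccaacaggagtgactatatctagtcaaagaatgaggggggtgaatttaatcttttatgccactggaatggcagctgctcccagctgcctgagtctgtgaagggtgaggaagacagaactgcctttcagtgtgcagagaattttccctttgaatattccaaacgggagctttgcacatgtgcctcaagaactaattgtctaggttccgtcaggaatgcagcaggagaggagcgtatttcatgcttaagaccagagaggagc
The Cadm4 window held 4 GC boxes and 40 CpG dinucleotides at 77.0% G and C, whereas the Cntn6 window held 0 GC boxes and 4 CpG dinucleotides at 46.3%. Of all 32851 such windows, 35.7% held a GC box, and their median was 7 CpG dinucleotides and 52.7% G and C. Among the other windows of these genes, the window of Cadm2 held 1 GC box, and those of Cadm3, Cntn1, Cntn2 and Cntn4 held none. Cadm3, like Cadm4, lay above the background mark on all 6 muscle arrays, so the pair does not stand for the other members. These matches describe the letters of the windows, and no binding was measured.

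The probe sets repeated the tissue difference along the length of the genes. Of the 194, 192 were higher in Usp15-deficient cerebellum (limma, adjusted over all probe sets), beside 39.1% of all probe sets, and 191 were higher in wild-type cerebellum, beside 35.4%. None was lower. Cadm2, a synaptic family member that was read through its 15 probe sets, was higher with 15 of 15 in both genotypes. The median over these 15 probe sets was 9.67, 9.63 and 9.59 in Usp15-deficient cerebellum and 4.97, 5.67 and 4.46 in Usp15-deficient muscle, against 9.62, 9.61 and 9.60 in wild-type cerebellum and 5.17, 5.08 and 4.67 in wild-type muscle. Cerebellar arrays lay close together and far above muscle. In muscle, 5 of the 15 Cadm2 probe sets were above the probe set mark in either genotype. For the other genes the number above the mark in Usp15-deficient muscle was 11 of 15 for Cadm1, 15 of 16 for Cadm3, 7 of 9 for Cadm4, 3 of 27 for Cntn1, 10 of 36 for Cntn2, 1 of 21 for Cntn4, 2 of 25 for Cntn6 and 10 of 30 for Cntnap1. In wild-type muscle it was 11, 12, 4, 2, 12, 0, 2 and 11 in the same order of genes. The genes thus ranged widely, with Cadm2, Cntn2 and Cntnap1 between the others in Usp15-deficient muscle, and no test of a difference between the families was run.

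Between the genotypes, none of the 9 genes was called as changed in cerebellum or in muscle. In cerebellum the 8 differences lay between -0.02 and 0.14, with a median of 0.06, where the median of all clusters was 0.04. In a limma fit across all clusters, 0 of 8 passed an adjusted p of 0.05 and 0 of 8 an unadjusted p of 0.05, beside 0% of all clusters after adjustment and 3.54% before it. Cntn1 had the largest difference, 0.14 ± 0.10 (SE), with a 95% confidence interval of -0.12 to 0.39. Cadm1 followed with 0.13 ± 0.16, an interval of -0.26 to 0.53, and overlapping arrays. This Cadm1 value was set by wild-type cerebellum array 1 at 7.67, without which the difference was -0.03. The widest of the 8 intervals ended at 0.53 and the narrowest, of Cntnap1, ran from -0.16 to 0.27. With 3 arrays a group the adjusted test called 0% of all clusters. It did not call Usp15 itself, at -0.52 ± 0.09 (limma adjusted p = 0.996). The lack of a call among the members therefore does not show that they were unchanged.

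**Figure D2:**
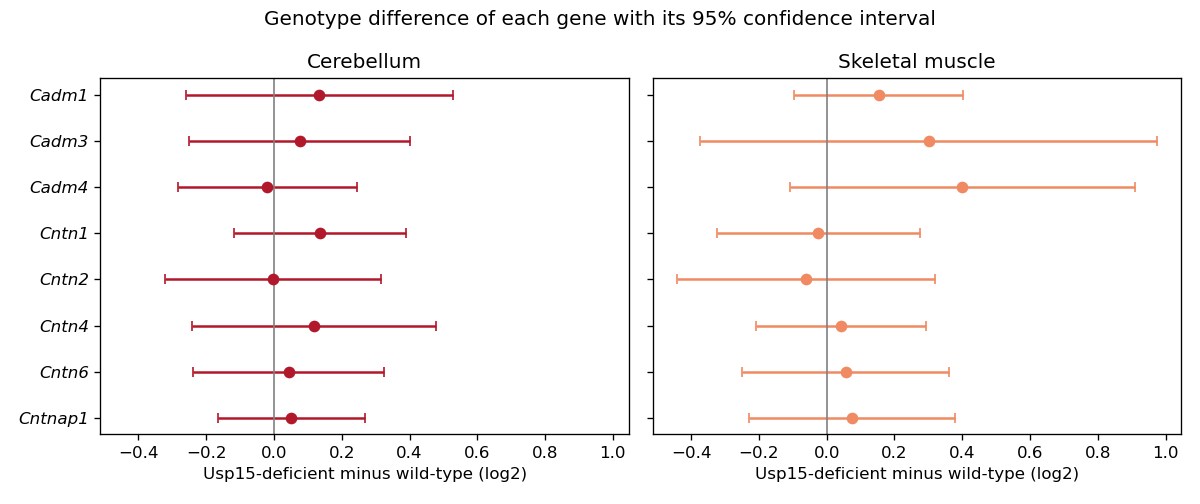
Usp15-deficient minus wild-type difference of the gene-level signal (log2, horizontal axis) for each of the 8 genes in cerebellum (left panel) and skeletal muscle (right panel). Points are limma estimates from 3 against 3 arrays, bars are 95% confidence intervals, and each interval includes 0.

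In skeletal muscle the 8 differences lay between -0.06 and 0.40, and the median of all clusters was 0.01. The highest were those of Cadm4 at 0.40 ± 0.21 (SE), with an interval of -0.11 to 0.91, and Cadm3 at 0.30 ± 0.28, with an interval of -0.37 to 0.98. Here too 0 of 8 passed the limma test with adjustment (adjusted p = 1.0 for each) and 0 of 8 without it, beside 0% of all clusters after adjustment and 3.09% before it. Nor did Usp15 pass with adjustment in muscle, at -1.87 ± 0.15 (limma adjusted p = 0.273). The 4 contactins and Cntnap1 differed by -0.06 to 0.07, but since they lay at or below background in muscle these are differences of background signals. Cadm1 was the only 1 of the 8 clusters whose groups did not overlap, with each of the 3 Usp15-deficient arrays above each wild-type array. Its difference was 0.15 ± 0.10 with an interval of -0.10 to 0.40. Separation of 3 against 3 arrays cannot go below p = 0.1 in an exact permutation test. The share of all clusters that separated in this way was not counted, so Cadm1 is not singled out by it.

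The Cadm3 and Cadm4 values in muscle were highest on the array on which several, but not all, genes of myelinating glia were highest. All 9 Cadm4 probe sets were positive (median 0.39, between 0.21 and 0.59), as were 14 of 16 Cadm3 probe sets (median 0.35), and none passed the test. Of all probe sets, 52.7% were positive in muscle. Probe sets of 1 gene on the same arrays are not independent, so these counts add no support. Usp15-deficient muscle array 2 was the highest of the 6 for both genes. It was also the highest for Mbp, the myelin basic protein, with 6.94, 8.73 and 7.63 in Usp15-deficient muscle against 6.64, 6.66 and 6.85 in wild-type muscle. Pmp22, a protein of peripheral myelin, had 10.12, 11.96 and 11.02 in Usp15-deficient muscle against 9.91, 9.93 and 10.46 in wild-type muscle. Ncam1, of the Schwann cell list, had 8.16, 7.86 and 8.69 in Usp15-deficient muscle against 7.95, 7.71 and 8.10 in wild-type muscle, and Mog, a myelin gene of oligodendrocytes, had 5.39, 5.11 and 5.47 against 5.31, 5.38 and 5.24. Over the 12 measured genes of the Schwann cell list and the oligodendrocyte and myelin list, Usp15-deficient muscle array 2 was the highest of the 6 for 7, the lowest for 1 (Mog) and in between for 4. The median of the 8 measured oligodendrocyte and myelin genes was 5.67, 5.70 and 5.59 in Usp15-deficient muscle against 5.32, 5.51 and 5.54 in wild-type muscle. Of the Schwann cell list 5 of 7 genes were measured (Pmp22, Egr2, Sox10, Ncam1 and Mbp). All 5 were positive with a median of 0.71, none was called, and their median level ranged from 6.94 to 7.86 on the Usp15-deficient arrays and from 6.64 to 6.85 on the wild-type arrays. All 5 were above the mark in both groups. Without Usp15-deficient muscle array 2 the difference was 0.06 for Cadm3 and 0.27 for Cadm4. Without wild-type muscle array 3, the one with high slow fibre genes, it was 0.39 for Cadm3 and 0.25 for Cadm4. The part of nerve content and fibre type in these values was not tested.

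**Figure D3:**
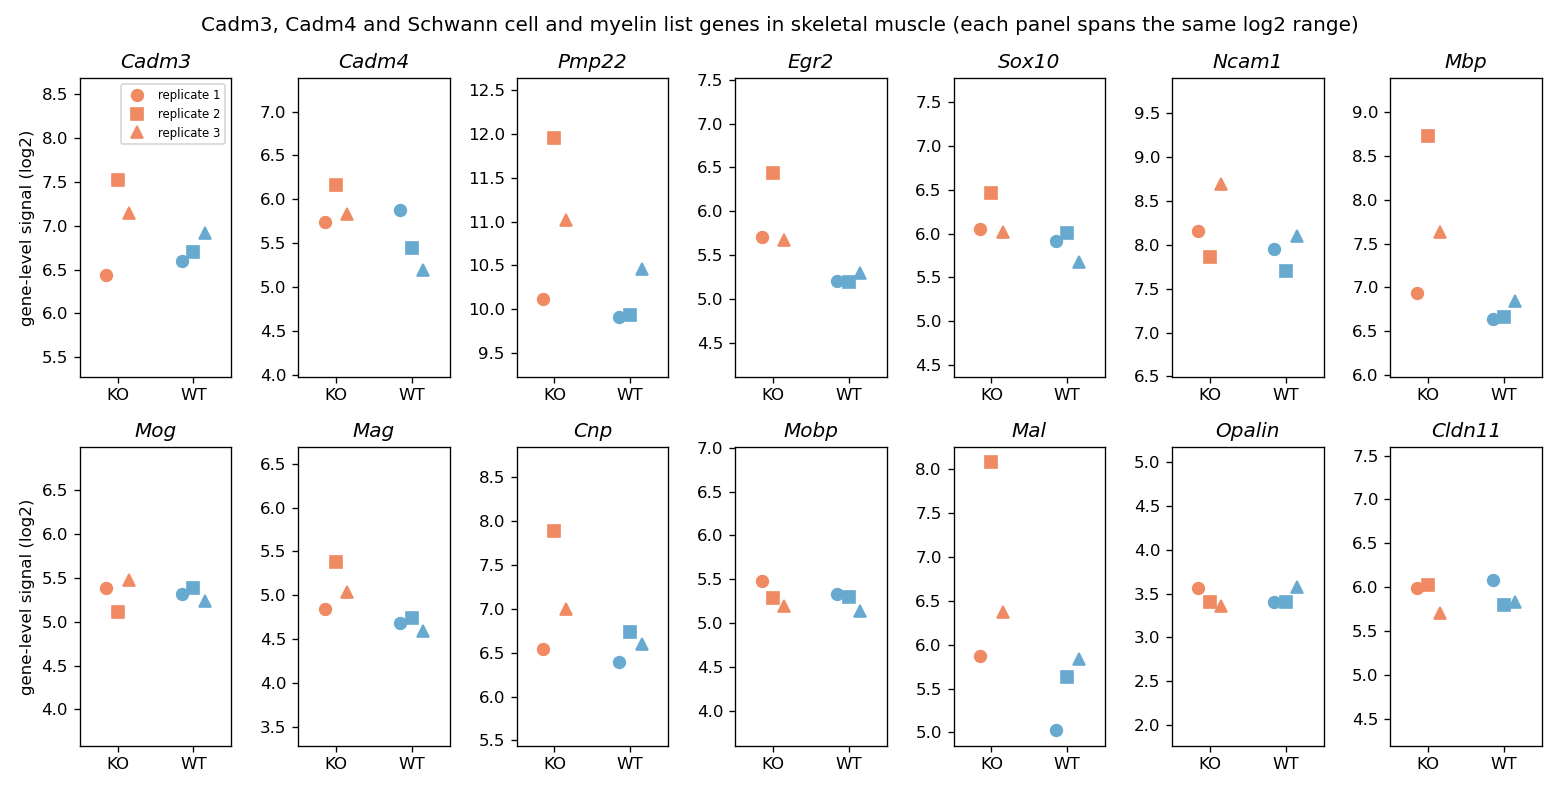
Gene-level signal (log2, vertical axis, the same span in each panel) of Cadm3, Cadm4 and the 12 measured genes of the Schwann cell list and the oligodendrocyte and myelin list on the 6 skeletal muscle arrays, Usp15-deficient (KO) left of wild-type (WT). Symbols give the replicate number. The square on the left, Usp15-deficient array 2, is the highest point for Cadm3, Cadm4 and 7 of the 12 list genes, and the lowest for Mog.

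At the probe set level, 0 of 194 were called between genotypes in cerebellum and 0 of 194 in muscle (limma), beside 0.000871% of all probe sets in either tissue. At an unadjusted p of 0.05 there were 2 in cerebellum and 9 in muscle, while 3.49% and 3.18% of all probe sets reached it. In cerebellum 140 of the 194 were positive with a median of 0.06, where 59.1% of all probe sets were positive with a median of 0.05. The difference between the tissues' genotype effects was fitted too. It was called for 0 of 8 clusters, beside 0% of all clusters, and for 0 of 194 probe sets, beside 0% of all probe sets. It reached an unadjusted p of 0.05 for 0 clusters and 5 probe sets of the members, beside 2.91% of all clusters and 3.11% of all probe sets. Its largest gene-level value was that of Cadm4, -0.42 ± 0.25 (cerebellum minus muscle, limma adjusted p = 1.0).

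Exon use, the signal of a probe set minus the gene-level signal of its gene on the same array, asks whether a part of a transcript is favoured apart from the level of the gene. It was available for 179 of the 194 probe sets, all but those of Cadm2. For Cadm1, 3 of 15 probe sets differed between the tissues in both genotypes, and all 3 were lower in cerebellum relative to the gene (limma, adjusted over 171159 probe sets), beside 11.2% of all probe sets called in both genotypes in 1 direction. The deposited files give no position of a probe set in its gene, so the exons are known only by number.

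The clearest was Cadm1 probe set 4974376. Its signal was 6.77, 6.61 and 6.88 in Usp15-deficient cerebellum and 6.42, 6.29 and 7.09 in Usp15-deficient muscle, against 6.43, 6.11 and 6.40 in wild-type cerebellum and 6.01, 6.44 and 6.54 in wild-type muscle. The tissues overlapped at this probe set, although the gene as a whole was over 3-fold higher in cerebellum. Its signal differed by 0.15 ± 0.25 in Usp15-deficient and -0.02 ± 0.24 in wild-type mice, with intervals of -0.43 to 0.74 in Usp15-deficient and -0.55 to 0.52 in wild-type mice. Its exon-use difference was -1.74 ± 0.24 in Usp15-deficient and -1.93 ± 0.25 in wild-type mice (limma adjusted p = 0.0038 and 0.00345). Its group means lay above the probe set mark in all 4 groups, but near it in wild-type cerebellum, at 6.31 against a mark of 6.14. Wild-type cerebellum array 2, at 6.11, was below that mark. The probe set stayed called in both genotypes under each alternative that was run. Whether its signal follows this gene or also another transcript was not tested.

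Probe set 5069094 of Cadm1 was below the mark in all 4 groups, with means of 4.98 in Usp15-deficient cerebellum, 5.26 in wild-type cerebellum, 4.82 in Usp15-deficient muscle and 4.71 in wild-type muscle. Its exon-use difference of -1.74 in Usp15-deficient and -1.36 in wild-type mice (limma adjusted p = 0.00093 and 0.00425) thus set a background signal against a gene that differed. Probe set 5046090 was above the mark throughout, with means of 8.04 in Usp15-deficient cerebellum and 6.87 in Usp15-deficient muscle, and 7.68 in wild-type cerebellum and 6.601 in wild-type muscle. Its exon-use difference was -0.72 ± 0.19 in Usp15-deficient and -0.84 ± 0.21 in wild-type mice (limma adjusted p = 0.0374 and 0.0357), and with 1 array left out the call was lost in 5 of 6 fits in Usp15-deficient and in 6 of 6 in wild-type mice. None was higher in both genotypes. By the mean of the Usp15-deficient and wild-type differences the highest was 5416721, at 0.87 in Usp15-deficient and 0.90 in wild-type mice (limma adjusted p = 0.0238 and 0.0638), followed by 5607901, at 1.01 in Usp15-deficient and 0.60 in wild-type mice (limma adjusted p = 0.00859 and 0.0712). Both were below the mark in muscle.

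**Figure D4:**
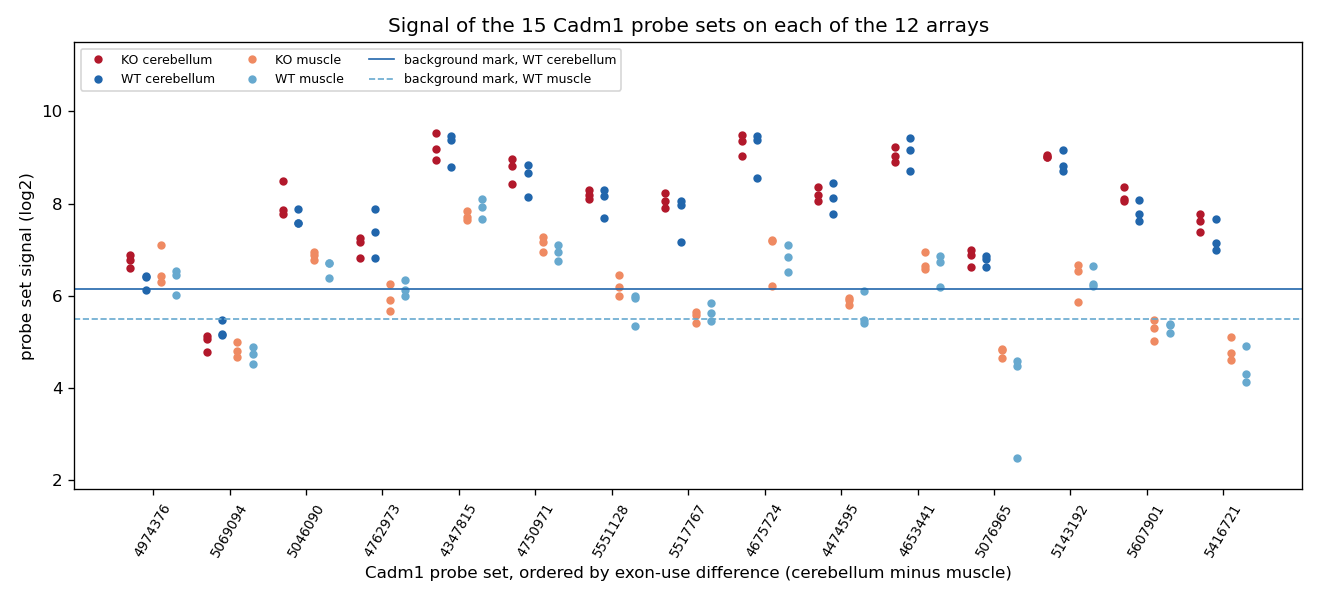
Signal (log2, vertical axis) of each of the 15 Cadm1 probe sets on the 12 arrays, ordered from left to right by the exon-use difference (cerebellum minus muscle). Points are arrays, coloured by group, and lines give the probe set background marks of the wild-type groups. At 4974376, on the far left, the muscle points lie among the cerebellar ones, and at 5069094 all points lie below the cerebellar mark.

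Over all members, 82 of 179 probe sets differed in exon use between the tissues in Usp15-deficient mice (30 higher and 52 lower in cerebellum), beside 20.3% of all probe sets, and 76 did in wild-type mice (26 higher and 50 lower), beside 16% of all probe sets. In both genotypes 14 were called higher, beside 5.3% of all probe sets, and 46 lower, beside 5.91%. The members' share is read with the level of these genes in muscle, since where a gene is at background there an exon-use difference sets a signal against background. Of the 179, 49 were above the mark in all 4 groups, of which 22 were called in both genotypes, beside 10.7% of all probe sets above the mark in all 4 groups. By gene these were 2 of Cadm1, 1 of Cadm3, 1 of Cntn1, 9 of Cntn2, 2 of Cntn6 and 7 of Cntnap1. That mark applied to the probe set and not to its gene. In muscle the clusters of Cntn1, Cntn2 and Cntn6 were below the gene-level mark and that of Cntnap1 at it. For these genes the count therefore still set a signal against background. The sign was the same in both genotypes for 159 of 179 probe sets, and the Usp15-deficient and wild-type differences correlated with r = 0.95 across the 179 probe sets, which share genes and probes and are not independent. Across the same probe sets the wild-type difference correlated with the wild-type cerebellar signal at r = 0.34, 0.46 within Cadm1. That signal is itself a term of the difference, so a positive r is partly built in and nothing is concluded from it.

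A few probe sets were bright in muscle although their gene was not. Cntn2 probe set 4404788 had 9.46, 9.52 and 9.36 in Usp15-deficient cerebellum and 8.82, 8.90 and 8.56 in Usp15-deficient muscle, against 9.50, 9.49 and 9.78 in wild-type cerebellum and 8.75, 8.61 and 8.69 in wild-type muscle. The muscle arrays were lower than the cerebellar ones, but by 0.68 ± 0.18 in Usp15-deficient and 0.90 ± 0.21 in wild-type mice, where the gene differed by over 4. Its exon-use difference was -3.67 in Usp15-deficient and -3.40 in wild-type mice (limma adjusted p = 0.000107 and 0.000147). Cadm2 probe set 4744860 was of the same kind, with 9.33, 9.36 and 9.47 in Usp15-deficient cerebellum and 8.62, 8.35 and 8.40 in Usp15-deficient muscle, against 9.62, 9.21 and 8.92 in wild-type cerebellum and 8.61, 8.31 and 8.35 in wild-type muscle. Set against the median of the other Cadm2 probe sets, its difference was -3.87 in Usp15-deficient and -3.89 in wild-type mice. Cadm3 probe set 5353923 had 9.55, 9.65 and 9.11 in Usp15-deficient cerebellum and 8.97, 7.90 and 8.39 in Usp15-deficient muscle, against 9.96, 10.04 and 8.76 in wild-type cerebellum and 8.99, 8.67 and 8.39 in wild-type muscle. Here the wild-type tissues overlapped, and the exon-use difference was -2.43 in Usp15-deficient and -2.76 in wild-type mice (limma adjusted p = 0.0178 and 0.0048). Others outside the naming rule were bright in muscle too, such as Cntnap1 5494238, at 9.03 in Usp15-deficient and 9.08 in wild-type muscle. Its exon-use difference was -2.20 in Usp15-deficient and -2.18 in wild-type mice (limma adjusted p = 0.000587 and 0.00235). Positions and probe sequences of all these probe sets were not used here. Whether they also bind another transcript was not tested, and their exon-use values, and the counts that include them, carry that doubt.

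For the other members the lowest exon use in cerebellum was that of Cntn6 probe set 5498623, at -4.32 in Usp15-deficient and -3.98 in wild-type mice (limma adjusted p = 0.000194 and 0.000206). Its muscle means were 5.75 in Usp15-deficient and 5.50 in wild-type mice, at the mark, in a gene far below it. For the other genes the probe set given in each direction is the one with the most extreme mean of the Usp15-deficient and wild-type differences. On the low side, Cntn4 5116656 stood at -2.98, Cntnap1 4726971 at -2.19, Cntn1 5590197 at -2.17 and Cadm4 4558425 at -0.69 in Usp15-deficient mice, and at -2.93, -2.36, -2.30 and -0.90 in wild-type mice in that order of genes. Of these values only that of Cadm4 in wild-type mice did not pass the test. In muscle, Cntn1 5590197 lay below the probe set mark, at 5.21 in Usp15-deficient and 5.24 in wild-type mice. Cntn4 5116656 lay near it, at 5.58 in Usp15-deficient and 5.32 in wild-type mice, and Cntnap1 4726971 above it, at 5.81 and 5.64. The clusters of Cntn1 and Cntn4 were below the gene-level mark in muscle and that of Cntnap1 at it. Their low-side values thus also rest on background signals in muscle. On the high side, Cadm3 5237912 stood at 0.46, Cadm4 4916353 at 1.67, Cntn1 5535221 at 2.06, Cntn2 5295791 at 2.15, Cntn4 4438929 at 2.23, Cntn6 4577236 at 1.18 and Cntnap1 5097218 at 1.89 in Usp15-deficient mice, and at 0.90, 1.56, 2.38, 2.18, 3.09, 1.61 and 1.35 in wild-type mice in that order of genes. Each passed in both genotypes except that of Cadm3, which passed in wild-type mice only. In wild-type muscle, Cadm3 5237912, at a mean of 4.83, and Cadm4 4916353, at 5.27, lay below the probe set mark of 5.48. Their wild-type values thus also set a cerebellar signal against background. The high-side probe sets of the contactins and Cntnap1 lay below the probe set mark in both muscle groups, in genes at or below the gene-level mark there, so their values rest on a difference of background signals in muscle and were not ranked. Cadm4 4916353 had 8.91, 9.32 and 9.30 in Usp15-deficient cerebellum and 5.01, 6.59 and 5.41 in Usp15-deficient muscle, against 8.86, 9.14 and 9.26 in wild-type cerebellum and 5.38, 5.02 and 5.43 in wild-type muscle. The tissues stood apart at it, and Usp15-deficient muscle array 2 was again the highest muscle array, and the only one above the probe set mark of its group.

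**Figure D5:**
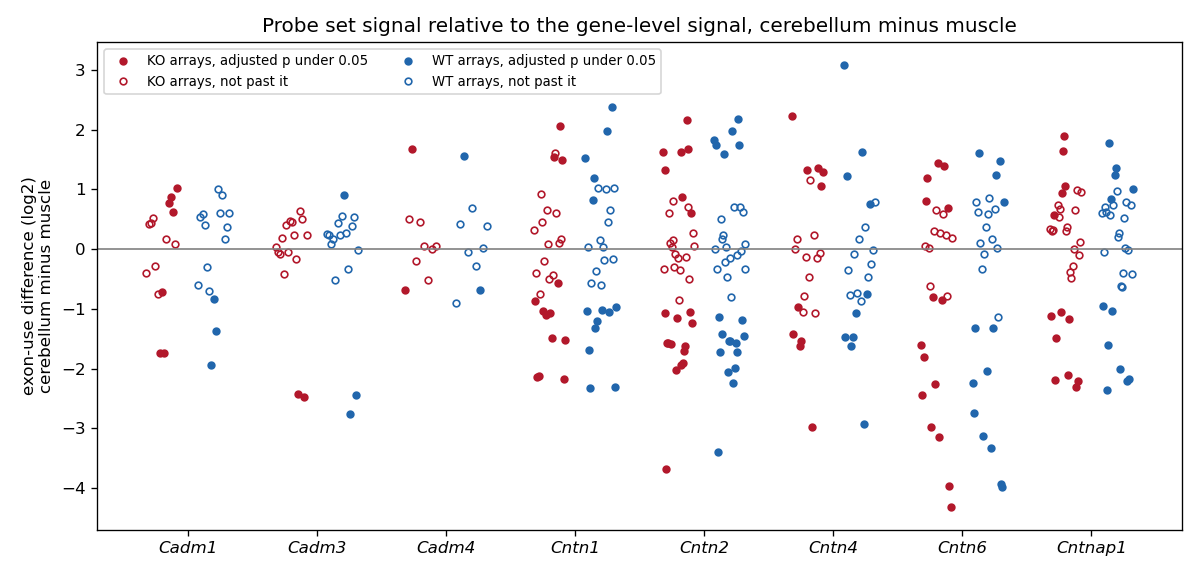
Exon-use difference (log2, cerebellum minus muscle, vertical axis) of the 179 probe sets with a gene-level value, by gene, for Usp15-deficient arrays (KO, left of each pair) and wild-type arrays (WT, right). Each point is a probe set, and filled points passed the adjusted limma test. In both genotypes the lowest points, near -4, belong to Cntn6.

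Between the genotypes exon use gave no call among the members. Of 179 probe sets, 0 passed in cerebellum and 0 in muscle (limma), beside 0.00117% of all probe sets in either tissue, and 2 and 12 had an unadjusted p under 0.05, where 3.48% and 3.75% of all probe sets did. Within Cadm1 in cerebellum, probe set 5069094 had the smallest p, at -0.41 ± 0.16 in limma (unadjusted p = 0.0395). Each Usp15-deficient array lay below the wild-type ones there, with signals under the mark. The other negative value of smallest p was that of 4653441 at -0.17, and the positive ones were those of 4974376 at 0.31 and 5607901 at 0.21, none with an unadjusted p under 0.05. In muscle the Cadm1 values of smallest p were those of 4347815 at -0.32, 4762973 at -0.37, 5076965 at 0.77 and 5551128 at 0.29, a pair in each direction, none with an unadjusted p under 0.05. The 0.77 of 5076965 came with an SE of 0.55 and signals below the mark.

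The other genes of these adhesion systems were mostly higher in cerebellum as well, and none of the measured genes of the lists was called between genotypes. Their counts stand beside the 57% of all clusters that were higher in Usp15-deficient cerebellum and the 54.6% that were higher in wild-type cerebellum. Of 13 relatives, 6 were measured and 6 were higher in cerebellum in both genotypes, with a median difference of 2.21 in Usp15-deficient and 2.19 in wild-type mice. They were led by the Caspr-family genes Cntnap4, at 5.19 in Usp15-deficient and 5.02 in wild-type mice, and Cntnap5b, at 3.20 in Usp15-deficient and 3.45 in wild-type mice. Of 16 proteins that bind the tails of Cadm proteins or their scaffolds, 12 were measured, of which 9 were higher in cerebellum in both genotypes and 1 (Usp15-deficient) or 2 (wild-type) were lower. The highest were Tiam1, a Rac activator, at 3.47 in Usp15-deficient and 3.39 in wild-type mice, and the scaffold protein Apba1, at 3.52 in Usp15-deficient and 3.36 in wild-type mice. The scaffold protein Mpp6 was lower in cerebellum, at -0.44 in Usp15-deficient and -0.62 in wild-type mice. Epb41l2, of the protein 4.1 family, was lower in wild-type cerebellum, and its difference of -0.59 in Usp15-deficient mice, beside -0.66 in wild-type mice, did not pass (limma adjusted p = 0.0696). Of 17 partners of contactins, 16 were measured and 13 were higher in cerebellum in both genotypes, with none lower. Chl1 led, at 4.96 in Usp15-deficient and 5.14 in wild-type mice, and Nrcam followed, at 4.75 in Usp15-deficient and 4.85 in wild-type mice, both L1-family adhesion molecules.

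The genes whose pattern over the 12 arrays was most like that of Cadm1 were found among 14995 single-gene clusters by the root mean square difference of centred log2 signals. They were Dpysl5 (0.0763), Phf24 (0.0789), Abr (0.0866), Rab3b (0.1003) and Fgfr3 (0.109). This is a description over 12 arrays, dominated by the tissue difference that most clusters share. Dpysl5, a collapsin response mediator family member, averaged 7.33 in Usp15-deficient cerebellum, 7.24 in wild-type cerebellum, 5.35 in Usp15-deficient muscle and 5.35 in wild-type muscle.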

How the data were processed

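The authors deposited log2 signals of the same 12 arrays in a gene-level and an exon-level table, and the deposited log2 values were used as given. How the signals were corrected, normalized and summarised, and on which genome build the array was drawn, is not given in the sources used. Of the clusters, 14996 had 1 symbol in the platform annotation, 1019 several and 7317 none. Of the probe sets, 209279 had 1, 4446 several and 15856 none, and only features with 1 symbol were named. No value column was left without a sample (0 columns). The members and gene lists were chosen with earlier results of these data known.

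Usp15-deficient arrays were compared with wild-type arrays within each tissue, cerebellum with muscle within each genotype, and the genotype effects between tissues over 12 arrays, using lmFit and eBayes of limma 3.58.1 (R 4.3.3), with two-sided p-values adjusted after Benjamini-Hochberg over every feature of a table and a threshold of 0.05. A difference of 3 against 3 arrays cannot go below p = 0.1 in an exact permutation test, so no such p is given. Exon use was the probe set value minus the value of the cluster of the same symbol (the brightest where several), tested over 171159 probe sets after leaving out 488 equal to it on every array. Fold bounds set the cerebellar mean against the muscle background mark. The limma steps were tested on simulated data. No arrays of a group held identical values beyond 0.0375% of probe sets, the value of Usp15-deficient muscle.

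Named were all members. Named probe sets were those of Cadm1 with exon use past the threshold in both genotypes, or else the largest, with the extreme probe set per direction for each other gene, both by the mean of the genotypes' differences. For the genotype comparison they were the 2 Cadm1 probe sets of smallest p in each direction, and for each list the extreme genes in wild-type mice. Probe sets 4404788, 4744860 and 5353923 fall under that rule, but their muscle signals and the myelin genes were described after their values were seen. Same-numbered arrays correlated by 0.103 to 0.218 between genotypes in cerebellum and by 0.0641 to 0.305 in muscle (gene level), and by -0.0654 to 0.101 between tissues. Each gene-level value passed 0.1 only between genotypes in cerebellum, and at the exon level that of replicate 3 there was 0.0918. The numbers may thus be paired in cerebellum, but all reported fits, intervals and p-values are unpaired. With the replicate number as a block, no call of a member changed in that comparison. The alternatives were a block for the replicate number, a joint fit to the 12 arrays, quantile normalization, each array left out in turn, a trended and robust variance prior, leaving out the dimmest 25% of features, features above the background mark only, and for exon use the median of a gene's other probe sets as reference. The number of arrays limits the precision.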

Additional observations from a re-analysis of the deposited data

Results flagged for a closer look

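Cntn4 probe set 5521438 was picked out because its genotype effect pointed in opposite directions in the tissues. Its signal was 6.96, 7.02 and 7.02 in Usp15-deficient cerebellum against 6.91, 6.86 and 6.66 in wild-type cerebellum, and 2.01, 1.23 and 1.48 in Usp15-deficient muscle against 2.42, 2.74 and 2.38 in wild-type muscle. The groups did not overlap in either tissue, with Usp15-deficient arrays higher by 0.20 in cerebellum and a difference of -0.94 in muscle. How many of all probe sets separate in this way was not counted, so the separation adds no support to a selected probe set. The difference between these effects was 1.13 ± 0.30 (SE, limma adjusted p = 1.0), which did not pass, and both muscle groups lay below the probe set mark.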

How the results depend on the processing

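No alternative gave a call between genotypes: 0 clusters, 0 probe sets and 0 exon-use values of the members were called in each fit, with each array left out in turn (0 to 0) and with the replicate number as a block (0 each). Among all features such calls were rare too, at most 3 of 23332 clusters, 28 of 229581 probe sets and 3 of 171159 exon-use values. With so few calls possible, the counts of 0 say little about the members. With an array left out, the members higher in cerebellum stayed at 8 clusters (8 to 8) and numbered 190 to 192 probe sets, and exon-use calls numbered 62 to 79 in Usp15-deficient and 54 to 68 in wild-type mice. Of all features in these fits, 13981 to 15654 of 23332 clusters and 91272 to 114283 of 229581 probe sets were called in either direction. Of all 171159 exon-use values, 20890 to 30447 were called in Usp15-deficient and 15806 to 22806 in wild-type mice. Under the replicate block, 8 clusters and 192 probe sets were called in either genotype, and 70 exon-use values in Usp15-deficient and 63 in wild-type mice. Beside these, 15634 of all clusters, 113664 of all probe sets and 26028 of all exon-use values were called in Usp15-deficient mice. In wild-type mice 15523, 109356 and 22065 were, in the same order. The block ended the calls of Cadm1 probe set 5046090 in both genotypes and of 5416721 in Usp15-deficient mice, and no other call named for Cadm1. In cerebellum every array at the gene level correlated best with its own number. Keeping only features above the background mark in both tissues left 4 of 4 tested clusters called in Usp15-deficient and 3 of 3 in wild-type mice. Of all clusters so kept, 8878 of 12060 and 8225 of 11735 were called in either direction. Of the members' probe sets, 63 of 64 in Usp15-deficient and 58 of 59 in wild-type mice were called, beside 70307 of 118531 and 63977 of 116451 of all. Of exon-use values with probe set and cluster above the mark, 21 of 43 in Usp15-deficient and 7 of 27 in wild-type mice were called. Of all such values, 18980 of 82128 and 13219 of 79693 were. The Cntnap1 cluster passed the mark in Usp15-deficient muscle only, so the genotypes were counted over different genes. Fewer members were tested in these fits, and in wild-type mice the share of exon-use values called was lower as well, against 76 of 179 as reported. The cause was not tested. A lower mark, the 75th percentile of the olfactory receptor features, was added after seeing the data and left 5 of 5 clusters in either genotype. Of all clusters, 13072 of 17658 in Usp15-deficient and 12623 of 17604 in wild-type mice were called under it. In wild-type mice 123 of 124 member probe sets were called, beside 93821 of 175747 of all. Exon-use calls were 45 of 96 in Usp15-deficient and 41 of 93 in wild-type mice, beside 28735 of 130873 and 22175 of 128974 of all. The Cadm1 difference between genotypes in cerebellum changed sign, to -0.030 (limma adjusted p = 0.995), without wild-type cerebellum array 1, and reached 0.25 without wild-type cerebellum array 3. Exon use of Cadm1 probe set 4974376 ranged from -1.96 to -1.51 in Usp15-deficient and from -2.15 to -1.78 in wild-type mice over 14 alternatives. The limits are 3 arrays a group, muscle signals at background for most contactin probe sets, unknown normalization, and probe sets with no position in their gene.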
